A study of Homo sapiens with 24 samples.

Results

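The comparison of siGATA1-1, an siRNA against GATA1, with non-targeting siRNAs at 25 nM rested on 12 of the 24 libraries of the study: the 4 that the column names give as siGATA1-1 replicates 1 to 4, and replicates 1 to 4 of each of the 2 non-targeting siRNAs, siNC-1 and siNC-2, which were weighted equally. All were made from K562 cells, a human leukemia line that grows in suspension and expresses embryonic and fetal globin genes. Cells were harvested 48 hours after transfection and the 3' ends of polyadenylated RNA were sequenced by BRB-seq, a method that pools barcoded samples. siGATA1-1 was the Silencer Select product s5593 and was used at 25 nM only, so its effect is that of 1 siRNA sequence at 1 dose and 1 time in 1 cell line. The 12 other libraries, a second GATA1 siRNA (siGATA1-2) at 6.25 nM and its controls, entered the same fit and add to the estimate of the spread between libraries.

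GATA1 is a zinc finger transcription factor that binds GATA sequences in DNA. In red cell precursors it works in a complex with TAL1, LMO2 and LDB1 and with its cofactor FOG1 (ZFPM1), and switches on globin genes, heme synthesis and further erythroid regulators such as KLF1. It also represses genes of other blood lineages, among them SPI1, which encodes the myeloid transcription factor PU.1. K562 cells carry the BCR-ABL1 fusion and sit between erythroid and megakaryocytic fates, and they are much used for studies of globin gene control.

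The siGATA1-1 libraries held 183971 to 378439 counts, the siNC-1 libraries 322217 to 473098 and the siNC-2 libraries 88290 to 455988. A filter on low counts left 6738 genes, which held 93.7% of the counts. Levels are given as CPM, counts scaled to library size after normalization. The limit that a count of 0 allows, 3 counts, was 6.51 CPM in the deepest and 38.9 CPM in the shallowest library at 25 nM, which was siNC-2 replicate 1. At 25 nM that library also had the lowest correlation over genes with the mean log2 CPM of the other replicates of its group, 0.798, against up to 0.944. The defining markers of K562 and erythroid cells were present: of 16 markers 15 passed the filter, and BCR, with 16 counts in the 12 libraries, did not.

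GATA1, the targeted gene, measured 307, 308, 242 and 300 CPM in siGATA1-1 replicates 1 to 4. The 8 control libraries ran from 389 to 717 CPM with a median of 550. The groups did not overlap, and GATA1 stood at 51.1% of its control level, a fall of 48.9% (95% interval 36.3% to 58.9%). On the log2 scale it fell by 0.97 (SE 0.16; adjusted p = 3.04e-05 by edgeR's quasi-likelihood test with Benjamini-Hochberg adjustment over all genes tested). An exact two-sided permutation test of GATA1 over the 495 choices of 4 of the 12 libraries gave p = 0.00202, the smallest value it can give. The lowest library, replicate 3, was also the shallowest of the siGATA1-1 libraries.

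Across all genes, 49 of 6738 (0.727%) passed an adjusted p of 0.05 in the edgeR test, and such genes are called here. Of these 26 were higher (0.386%) and 23 lower (0.341%) with siGATA1-1 than with the controls. Globin and heme synthesis genes and KLF1 were among the lower genes, and several myeloid genes among the higher. More than a 2-fold change was seen for 12 of the higher and 9 of the lower genes. The ranges of the 4 siGATA1-1 and 8 control libraries did not overlap for 37 of the 49 called genes (18 higher, 19 lower), against 122 of all 6738 genes (1.81%). At an unadjusted p under 0.05 there were 237 higher and 193 lower genes. The nominal count at that level is about 337 in all, but siNC-1 against siNC-2 gave 86 in the same fit. The median log2 fold change over all genes was 0.01, and 50.7% of genes had positive values.

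**Figure D1:**
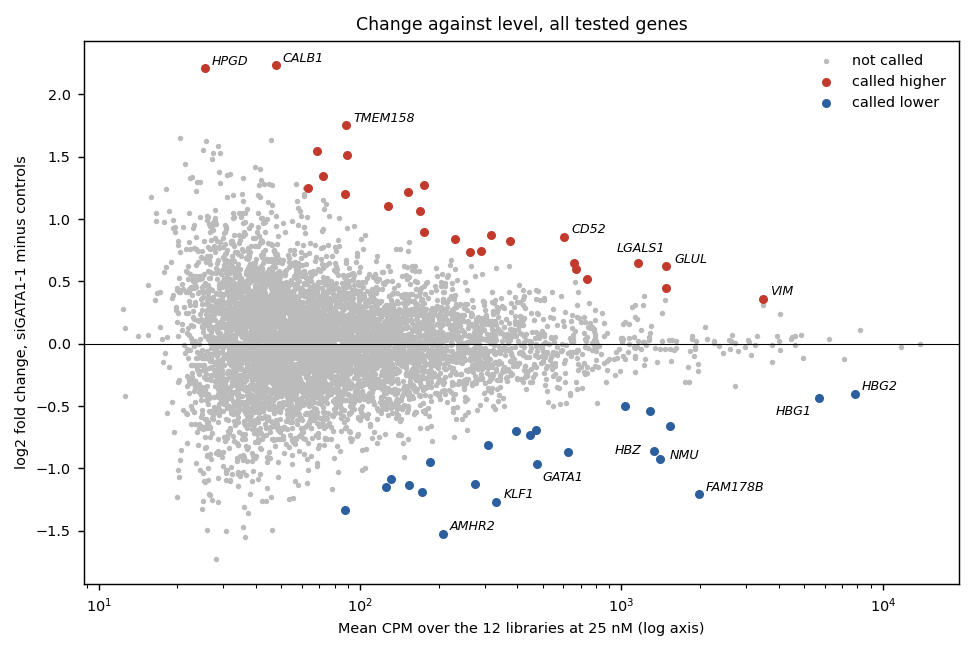
The log2 fold change of siGATA1-1 against the controls (vertical axis) is plotted against the mean CPM over the 12 libraries at 25 nM (horizontal log axis). Points are 6725 of the 6738 tested genes, without those whose symbols had become dates. Called genes are in red (26 higher) or blue (23 lower). Called lower genes lie further right, with a median control level of 517 CPM against 160 CPM for called higher genes, and the smallest called changes, such as VIM at 0.36, belong to genes of high counts.

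The genes called lower had a median control level of 517 CPM and those called higher 160 CPM, where the median tested gene had 67.4 CPM. Of genes averaging 500 or more counts 7.55% were called, and of the 422 genes with 100 to 500 counts 4.5% were called. Below 20 counts 4 genes were called: HPGD, CALB1, SIGLEC6 and SMIM3. The 95% interval of the fold change lay within 2-fold of no change for 3713 genes (55.1%), and within 1.5-fold of no change for 996 genes (14.8%).

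Among transcription factors, KLF1, the erythroid Kruppel-like factor that binds CACCC elements of globin promoters, measured 128, 232, 177 and 149 CPM with siGATA1-1. The controls ran from 377 to 468 CPM, with a median of 406. No siGATA1-1 library reached the lowest control, and the mean stood at 41.6% of control (log2 fold change -1.27, SE 0.21, edgeR adjusted p = 3.04e-05). LDB1, the adaptor that bridges GATA1 complexes at enhancers and promoters, measured 68.3, 72.8, 70.7 and 62.4 CPM against 83.2 to 275 (median 139) in the controls, and fell by 1.15 (SE 0.29, edgeR adjusted p = 0.0205). Its siGATA1-1 values were close together and its controls widely spread. LDB1 lost its call when 1 library was left out in 7 of 12 fits, at adjusted p up to 0.186 without siNC-2 replicate 2, whereas KLF1 kept its call in all 12.

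Of 32 tested erythroid transcription factors and GATA1 partners 3 fell (GATA1, KLF1, LDB1) and none rose, where 0.341% of all tested genes were called lower. The list had a median log2 fold change of -0.12 beside 0.01 for all genes. LYL1, a relative of TAL1, was at 608 ± 48.4 CPM with siGATA1-1 (SD, n = 4) and 620 ± 123 with the controls (SD, n = 8). Other members of the complex, chosen for mention after their values were seen, did not pass the test. TAL1 had a log2 fold change of -0.39 (95% interval -0.98 to 0.20), LMO2 of 0.06 (-0.53 to 0.66) and ZFPM1 of 0.15 (-0.55 to 0.85). GATA2, the GATA factor of earlier progenitors, had -0.40 (-0.88 to 0.09).

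Promoters of 34 of the 49 called genes could be matched by symbol in RefSeq (build GRCh38.p14), each as 250 bases before and 50 bases after the transcription start. The GATA motif, searched as AGATAA or TGATAA on both strands, was found in 6 of these 34 windows (17.6%). It was in 7.2% of the 5391 matched windows of tested genes and in 16.6% of all 27305 windows of that length. A window was matched for 13 of the 23 genes called lower and for 21 of the 26 called higher. The called globin genes HBZ, HBA1, HBG1 and HBG2, and SPI1, had none, so their promoters were not searched. The motif lay in 3 of the 13 windows of genes called lower (KLF1, ATIC, ALAS2) and in 3 of the 21 of genes called higher (EPHB6, AIF1, ITM2A). A CACCC motif, searched as CCACACCC on both strands, which does not overlap the GATA motif, was also in 6 of the 34 (17.6%), against 2.84% of tested genes and 3.22% of all. It was found at AMHR2, FAM178B and RNASE1 among the genes called lower and at CD52, CLIC1 and VIM among those called higher. With 34 windows these shares are descriptions and were not tested.

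The 250 bases before the start are shown for the 3 genes called lower with a GATA motif, so that the letters of the motif can be read beside the falls of these genes; binding was not measured. The sequences are from RefSeq, build GRCh38.p14, 5' to 3' in the direction of the gene, with the motif in capitals. The KLF1 window is chr19:12887202-12887451, minus strand, the ALAS2 window chrX:55030978-55031227, minus strand, and the ATIC window chr2:215311809-215312058, plus strand. The motif begins 66 bases before the start of KLF1, 127 before that of ALAS2 and 42 before that of ATIC. In KLF1 it reads as the reverse strand of TGATAA, in ALAS2 as the reverse strand of AGATAA, and in ATIC as TGATAA itself.
KLF1: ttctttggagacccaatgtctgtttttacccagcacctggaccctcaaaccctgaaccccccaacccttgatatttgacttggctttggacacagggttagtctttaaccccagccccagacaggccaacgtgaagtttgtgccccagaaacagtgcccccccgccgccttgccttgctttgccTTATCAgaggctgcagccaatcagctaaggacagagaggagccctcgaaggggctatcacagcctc
ALAS2: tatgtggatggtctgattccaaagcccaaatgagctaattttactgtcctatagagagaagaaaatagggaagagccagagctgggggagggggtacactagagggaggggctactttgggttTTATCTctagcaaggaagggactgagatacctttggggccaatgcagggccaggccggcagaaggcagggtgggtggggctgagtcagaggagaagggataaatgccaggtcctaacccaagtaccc
ATIC: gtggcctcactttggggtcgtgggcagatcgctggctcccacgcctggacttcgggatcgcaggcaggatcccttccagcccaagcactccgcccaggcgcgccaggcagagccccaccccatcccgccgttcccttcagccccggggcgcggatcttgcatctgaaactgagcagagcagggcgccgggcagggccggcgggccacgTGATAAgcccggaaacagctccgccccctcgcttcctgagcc

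The globin genes were lower as a group of 4. HBZ, the embryonic zeta globin of the alpha cluster, measured 876, 913, 961 and 726 CPM with siGATA1-1 and 1193 to 2006 (median 1566) with the controls. The groups did not overlap, and HBZ stood at 55.1% of control (log2 fold change -0.86, SE 0.14, edgeR adjusted p = 4.15e-05). The fetal gamma globin HBG2 measured 6714, 6845, 7027 and 5212 CPM, against 7084 to 9537 (median 8540) in the controls, and fell by 0.40 (SE 0.09, adjusted p = 0.0102). HBG1, the other gamma globin, fell by 0.44 (SE 0.10, adjusted p = 0.0056), and its range of 3735 to 5013 CPM met that of the controls (4844 to 7190) at siNC-2 replicate 1. HBA1, an adult-type alpha globin, fell by 0.54 (SE 0.12, adjusted p = 0.00578), from 1440 ± 146 to 987 ± 84.3 CPM, with no overlap.

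Of 8 tested globin genes 4 fell and none rose, with a median of -0.37, where 0.341% of all tested genes were called lower. The embryonic epsilon globin HBE1, named here after its value was seen, was at 2324 ± 276 CPM against 2936 ± 264 and missed the threshold (log2 fold change -0.34, SE 0.10, adjusted p = 0.153), although its ranges of 1918 to 2534 and 2647 to 3358 CPM did not overlap. HBA1 and HBA2, and HBG1 and HBG2, are near-identical copies, so reads may have been split between them. Summed, a step added after the values were seen, the alpha pair was at 1268 ± 179 CPM against 1773 ± 157 (log2 fold change -0.49, SE 0.12, edgeR adjusted p = 0.0145) and the gamma pair at 11088 ± 1443 against 14798 ± 1690 (-0.42, SE 0.09, adjusted p = 0.00338). HBA1, HBG1 and HBG2 each lost their call when siGATA1-1 replicate 4, the lowest library for all 3, was left out (adjusted p = 0.109, 0.198 and 0.281), and HBZ did not.

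Genes of heme synthesis and of iron import into mitochondria fell. ALAS2, the erythroid enzyme of the rate-limiting step, measured 407, 328, 366 and 223 CPM with siGATA1-1 and 414 to 725 (median 505) with the controls. Its groups lay next to each other without overlap (log2 fold change -0.69, SE 0.17, edgeR adjusted p = 0.0175). SLC25A37, mitoferrin, which carries iron into mitochondria, fell by 0.50 (SE 0.13, adjusted p = 0.0379), from 1143 ± 161 to 812 ± 158 CPM. ALAS2 and SLC25A37 were among the 3 of 19 tested genes of heme synthesis and its carriers that fell, against 0.341% of all tested genes. None rose, and 15 of the 19 had negative values (median -0.37). UROD was at 623 ± 35.6 against 713 ± 173 CPM and did not pass the test. Both calls depended on single libraries: without siGATA1-1 replicate 4 the adjusted p was 0.434 for ALAS2 and 0.646 for SLC25A37. In all, leaving out 1 library ended the call of ALAS2 in 4 of 12 fits and of SLC25A37 in 8, and SLC25A37 was also lost with no filter on low counts (adjusted p = 0.0659).

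In iron uptake and heme breakdown 2 of 13 tested genes fell, against 0.341% of all tested genes, and none rose (median -0.04). TFRC, the transferrin receptor that takes up iron, measured 313, 378, 277 and 250 CPM against 420 to 781 (median 463), without overlap, and fell by 0.73 (SE 0.17, edgeR adjusted p = 0.0106). Against siNC-1 alone it did not pass (log2 fold change -0.51, adjusted p = 0.571), while against siNC-2 alone it did (-0.95, adjusted p = 0.00334). It was also lost without siGATA1-1 replicate 4 (adjusted p = 0.198), siGATA1-1 replicate 3 (0.0632) or siNC-2 replicate 3 (0.0509). BLVRB, biliverdin reductase B of red cells, measured 1084, 1266, 1097 and 922 CPM against 1306 to 2538 (median 1670) and fell by 0.66 (SE 0.13, adjusted p = 3.67e-04), a call that held in all 12 fits that left out a library. FTL, the ferritin light chain, was at 3407 ± 252 against 3240 ± 588 CPM, and PCBP2, an iron chaperone, at 1968 ± 55.9 against 1924 ± 294.

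Genes of the red cell membrane and blood groups did not pass the test: of 25 tested members none was called by edgeR, 2 were higher and 2 lower at an unadjusted p under 0.05, and the median was -0.05. RHAG, the Rh-associated glycoprotein, was at 817 ± 111 against 617 ± 69.7 CPM (log2 fold change 0.41, 95% interval 0.15 to 0.68, edgeR adjusted p = 0.21). GYPC (641 ± 58.5 against 756 ± 101 CPM) and BSG, basigin (3016 ± 374 against 3204 ± 612 CPM), were closer to their controls.

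**Figure D2:**
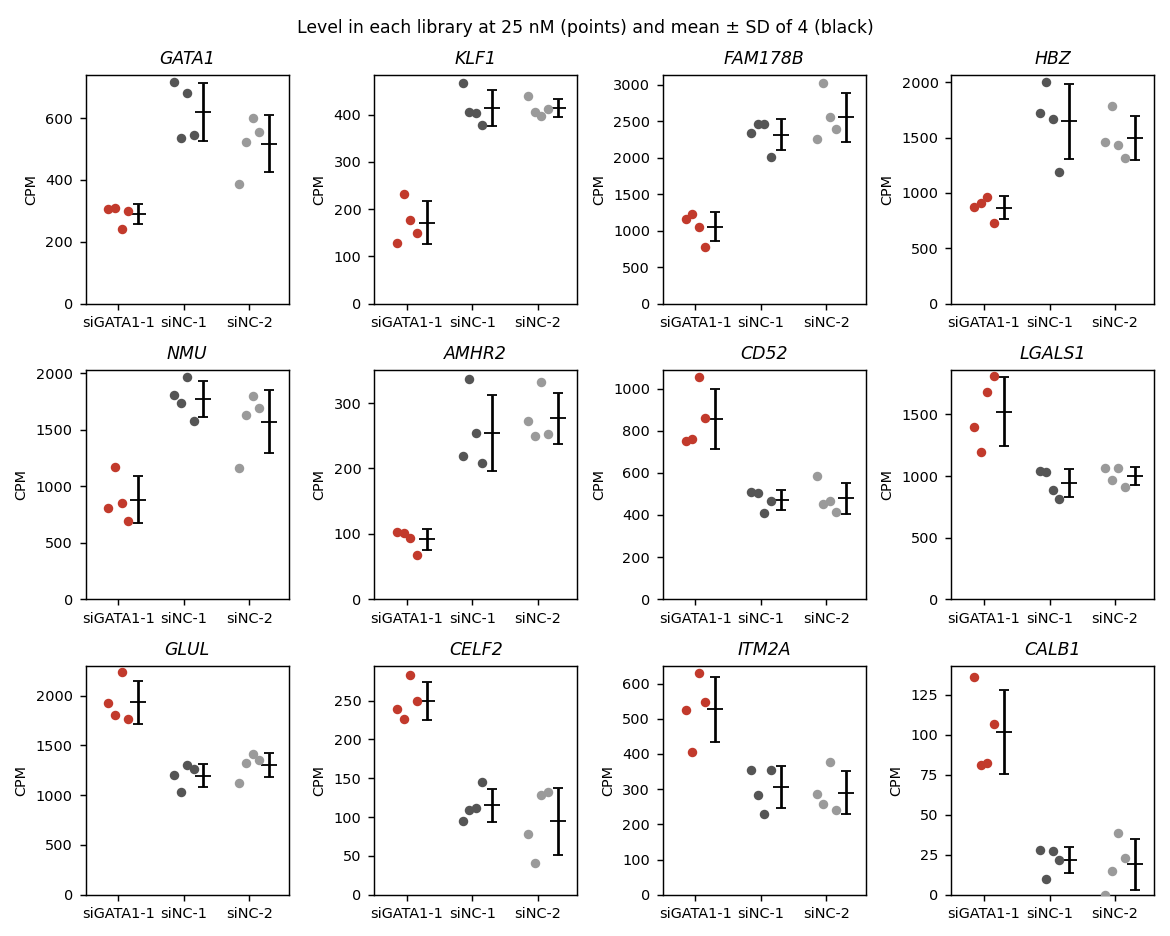
Each panel gives the CPM of 1 gene (vertical axis, from 0) in the 4 libraries of siGATA1-1 (red), siNC-1 (dark grey) and siNC-2 (light grey) at 25 nM, with the mean ± SD of each group in black. The 12 genes were picked from the 15 called genes that held in every fit, so their separation partly follows from the choice. Ranges did not overlap for 37 of all 49 called genes and for 122 of all 6738 genes (1.81%). In 11 of the 12 panels every siGATA1-1 point lies outside the range of the 8 control points; in the NMU panel siGATA1-1 replicate 2, at 1173 CPM, lies just above siNC-2 replicate 1, at 1166 CPM.

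The other genes that fell were spread over several lists or were on none. FAM178B had the smallest adjusted p of all genes: it measured 1166, 1224, 1055 and 776 CPM with siGATA1-1 against 2018 to 3029 (median 2426) with the controls, 43.3% of control (log2 fold change -1.21, SE 0.12, edgeR adjusted p = 3.18e-12). Its groups lay far apart. AMHR2, the receptor of anti-Mullerian hormone, measured 102, 101, 94.3 and 68.4 CPM against 208 to 337 (median 253; log2 fold change -1.52, SE 0.25, adjusted p = 3.04e-05). NMU, the neuropeptide neuromedin U, measured 811, 1173, 849 and 696 CPM against 1166 to 1965 (median 1714; -0.92, SE 0.13, adjusted p = 1.52e-07). KCNH2, the hERG potassium channel, measured 378, 507, 419 and 309 CPM against 672 to 821 (median 726; -0.87, SE 0.15, adjusted p = 6.26e-05). All 4 kept their calls in the 12 fits that left out 1 library.

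PVT1, the long noncoding RNA that neighbours MYC, measured 182, 188, 76.6 and 155 CPM against 233 to 493 (median 327), without overlap, and fell by 1.12 (SE 0.20, edgeR adjusted p = 1.1e-04). MYC itself was at 156 ± 39.7 against 267 ± 67.4 CPM and missed the threshold (log2 fold change -0.75, SE 0.22, adjusted p = 0.122). PVT1 was the only 1 of 13 tested genes of MYC and its network to be called. UCA1, another long noncoding RNA, fell by 1.09 (SE 0.26, adjusted p = 0.0109), from 159 ± 37.2 to 74.9 ± 16.7 CPM; it was lost without siGATA1-1 replicate 3 (adjusted p = 0.0665), siGATA1-1 replicate 4 (0.134) or siNC-2 replicate 4 (0.0528).

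Among metabolic genes, ATIC, which carries out the last steps of purine synthesis, measured 68.3, 104, 94.3 and 74.3 CPM against 140 to 256 (median 181), and fell by 1.13 (SE 0.26, edgeR adjusted p = 0.00721). It was the only called gene of 23 tested genes of purine and pyrimidine synthesis, of which 20 had negative values (median -0.30); PAICS, for one, was at 317 ± 36.4 against 389 ± 33.4 CPM. SLC7A8, which carries large neutral amino acids across the cell membrane, fell by 1.33 (SE 0.34, adjusted p = 0.0302), from 110 ± 34.6 to 42.3 ± 20.2 CPM, with siNC-2 replicate 1 at 51.8 CPM inside the siGATA1-1 range. TGM2, tissue transglutaminase, which crosslinks proteins, fell by 1.19 (SE 0.25, adjusted p = 0.00283), from 214 ± 46.4 to 90.9 ± 34 CPM. RNASE1, a secreted ribonuclease, fell by 0.81 (SE 0.19, adjusted p = 0.00942), from 361 ± 75.4 to 207 ± 46.1 CPM. TCOF1, the treacle protein needed for ribosomal RNA transcription, fell by 0.95 (SE 0.24, adjusted p = 0.0248), from 222 ± 50.8 to 112 ± 26.6 CPM.

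TCOF1 was the only called gene of 47 tested genes of ribosome biogenesis, of which 36 had negative values (median -0.23). FBL, fibrillarin, was at 884 ± 108 against 969 ± 114 CPM and did not pass. The calls of TCOF1 and SLC7A8 were lost in 6 of 12 fits that left out 1 library (edgeR adjusted p up to 0.222 and 0.23), that of ATIC without siGATA1-1 replicate 1 (0.085) or 4 (0.0943), that of TGM2 without siGATA1-1 replicate 1 (0.0923), and that of RNASE1 without siGATA1-1 replicate 1 (0.0587), siGATA1-1 replicate 4 (0.242) or siNC-2 replicate 2 (0.0574).

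Several myeloid genes were higher. Of 43 listed genes 17 passed the filter on low counts, and a gene can pass it through the group where it is high. Of these 17 genes 4 rose and none fell, where 0.386% of all tested genes were called higher. Positive values were found for 16, and the median log2 fold change was 0.41, against 0.01 for all genes. SPI1, which encodes PU.1, measured 333, 300, 607 and 392 CPM with siGATA1-1 and 155 to 294 (median 226) with the controls. The groups met closely at 300 and 294 CPM without overlap, and replicate 3 stood above the rest (log2 fold change 0.75, SE 0.19, edgeR adjusted p = 0.0248). TYROBP, the signalling adaptor DAP12, measured 239, 118, 165 and 262 CPM against 70.4 to 126 (median 82.2; 1.11, SE 0.25, adjusted p = 0.00563). AIF1, a calcium and actin binding protein of macrophages, measured 270, 210, 248 and 390 CPM against 63.2 to 272 (median 113; 1.27, SE 0.26, adjusted p = 0.00142), where the 272 CPM came from siNC-2 replicate 1. SIGLEC6, a sialic acid binding receptor, measured 108, 89.6, 165 and 119 CPM against 20.4 to 77.7 (median 36.2; 1.54, SE 0.35, adjusted p = 0.00748).

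Each of these 4 calls rested in part on single libraries. SPI1 was lost in 5 of 12 fits, with a log2 fold change of 0.52 (edgeR adjusted p = 0.63) without siGATA1-1 replicate 3. AIF1 was lost without siGATA1-1 replicate 4 (adjusted p = 0.101). TYROBP was lost without siGATA1-1 replicate 1 (0.0876) or 4 (0.205). SIGLEC6 was lost without siGATA1-1 replicate 3 (0.0834) or 4 (0.0528). Against single controls SPI1 passed with neither siNC-1 nor siNC-2 (edgeR adjusted p = 0.149 and 0.2). TYROBP did not pass against siNC-1 alone (0.14), nor AIF1 and SIGLEC6 against siNC-2 alone (0.0911 and 0.199). TYROBP, AIF1 and SIGLEC6 each passed against the other control. Of the 7 markers that define myeloid cells, MPO had 0 counts in all 12 libraries, CSF1R had 1 count and CD14 had 2. Their summed level was 633 to 979 CPM with siGATA1-1 and 464 to 678 CPM with the controls, ranges that overlapped, and came mostly from SPI1, TYROBP and LYZ. The summed level of the K562 and erythroid markers was 14727 to 19386 CPM against 22137 to 27517. Most of that sum came from HBG1 and HBG2 (together 11088 against 14798 CPM on average), and GATA1 itself is part of it. In such bulk samples a different share of cells of a type and a different RNA level per cell cannot be told apart.

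No tested gene of the lists of further lineages was called by edgeR, but most listed genes were not tested. The lists held 28 megakaryocyte and platelet genes and 20 mast cell, basophil and eosinophil genes. They also held 21 lymphoid genes and 23 epithelial, endothelial and fibroblast genes. Of 6 tested megakaryocyte and platelet genes none was called (median -0.10), and GP9 and PF4 had 0 counts in all 12 libraries. Of 5 tested mast cell, basophil and eosinophil genes none was called, though 4 had negative values, the median was -0.68, and 1 was higher and 2 lower at an unadjusted p under 0.05. Among these 5 were PRG2, a granule protein, at 125 ± 16 against 193 ± 49.9 CPM (log2 fold change -0.68, SE 0.22, adjusted p = 0.228) and ALOX5 at 119 ± 29.1 against 73.7 ± 17.9 CPM (0.67, SE 0.30, adjusted p = 0.637). The 2 tested lymphoid genes, CD3D and PTPRC, had log2 fold changes of 0.22 and 0.01. Of 6 tested epithelial, endothelial and fibroblast genes none was called, with KRT19 at 599 ± 70.1 against 520 ± 96.2 CPM. The summed levels of the megakaryocyte, lymphoid, and epithelial or fibroblast markers overlapped between the groups, as the myeloid sum did.

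Among genes reported as repressed by GATA1, 2 of 14 tested members rose, against 0.386% of all tested genes. None fell, yet 10 of the 14 had negative values (median -0.16). The members that rose were SPI1 and VIM. VIM, the intermediate filament protein vimentin, measured 3972, 4034, 4015 and 4314 CPM against 2564 to 3579 (median 3221). It was above every control library by a small step (log2 fold change 0.36, SE 0.10, edgeR adjusted p = 0.0478). VIM lost its call in 9 of 12 fits that left out 1 library, at adjusted p up to 0.281, though its log2 fold change stayed between 0.32 and 0.39. It was also lost with no filter on low counts (0.242) and with only the 12 libraries compared (0.0681).

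**Figure D3:**
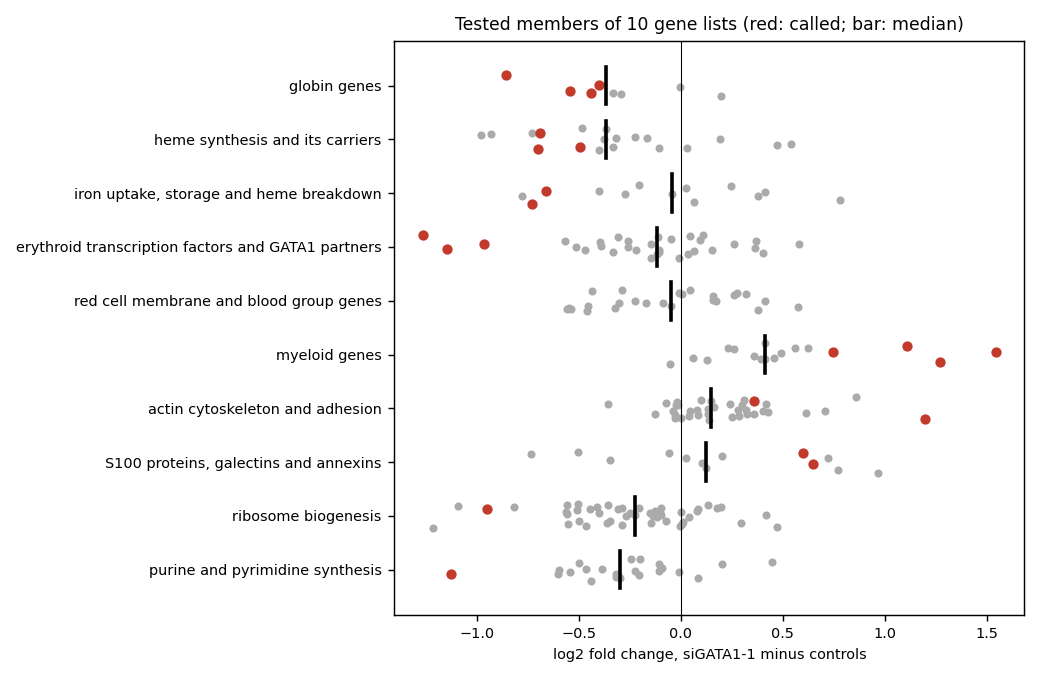
Each point is the log2 fold change of siGATA1-1 against the controls (horizontal axis) of a tested member of 1 of 10 gene lists (rows), with called members in red and the median of the list as a black bar. Called members lie left of 0 in the globin, heme, iron, erythroid transcription factor, ribosome biogenesis and nucleotide lists, and right of 0 in the myeloid, actin, and S100, galectin and annexin lists; the red cell membrane list has none.

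Members of the lists of actin and adhesion and of S100 proteins, galectins and annexins were also among the genes that rose. GSN, gelsolin, which severs actin filaments, measured 122, 146, 94.3 and 193 CPM against 44.6 to 92.5 (median 55.5) and rose by 1.20 (SE 0.29, edgeR adjusted p = 0.0145). With VIM it made 2 of 37 tested genes of actin and adhesion that rose, against 0.386% of all tested genes. In that list none fell, and 27 had positive values (median 0.15). TMSB10, thymosin beta 10, did not pass at 4488 ± 378 against 3844 ± 1224 CPM. LGALS1, galectin 1, a lectin secreted by many cells, measured 1397, 1196, 1686 and 1811 CPM against 811 to 1063 (median 1002), well apart, and rose by 0.65 (SE 0.11, adjusted p = 6.26e-05). S100A13 rose by 0.60 (SE 0.16, adjusted p = 0.0371), yet siNC-2 replicate 1, at 1256 CPM, was above all 4 siGATA1-1 libraries (589 to 1085), and the 7 other controls were below them (429 to 543). These were 2 of 13 tested S100 proteins, galectins and annexins (median 0.12), against 0.386% of all tested genes called higher. ANXA1, annexin A1, was at 661 ± 26 against 648 ± 97.6 CPM.

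CALB1, the calcium buffer calbindin, measured 137, 81.2, 82.5 and 107 CPM with siGATA1-1 against 0 to 38.4 (median 22.2) with the controls (log2 fold change 2.23, SE 0.41, edgeR adjusted p = 2.15e-04). Its counts were low, 15 on average over the 12 libraries, and the groups were still apart. Its log2 fold change and that of HPGD (2.21) were the largest among the genes that rose, with HPGD the larger of the pair in limma voom. LGALS1 and CALB1 kept their calls in all 12 fits that left out 1 library. GSN was lost without siGATA1-1 replicate 2 (adjusted p = 0.0589) or 4 (0.339), and S100A13 in 10 of 12 fits. S100A13 also missed the threshold with the DESeq2 Wald test (0.112) and with only the 12 libraries compared (0.122).

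Several genes that rose were on none of the lists. CD52, a small GPI-anchored glycoprotein of blood cells, measured 751, 759, 1055 and 859 CPM against 407 to 583 (median 467), 181% of control (log2 fold change 0.86, SE 0.14, edgeR adjusted p = 3.35e-05). ITM2A, a membrane protein, measured 523, 406, 631 and 547 CPM against 230 to 378 (median 285; 0.82, SE 0.16, adjusted p = 7.07e-04). TMEM158, also a membrane protein, measured 154, 98, 112 and 297 CPM against 25.9 to 75.9 (median 48.6; 1.75, SE 0.30, adjusted p = 4.7e-05). In all 3 the groups did not overlap. EPHB6, an ephrin receptor without kinase activity, rose by 1.51 (SE 0.30, adjusted p = 9.68e-04), from 52.4 ± 22.4 to 162 ± 73.6 CPM. SOSTDC1, a secreted protein that blocks BMP signals, rose by 1.35 (SE 0.33, adjusted p = 0.0175), from 47.5 ± 17.3 to 121 ± 32 CPM. SMIM3, a small membrane protein, rose by 1.25 (SE 0.34, adjusted p = 0.0492), from 43 ± 16 to 103 ± 10.7 CPM, with siNC-1 replicate 4 apart from its group at 67.3 CPM.

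PLP2, a membrane proteolipid, rose by 0.74 (SE 0.17, edgeR adjusted p = 0.0109), SH3BGRL3 by 0.65 (SE 0.15, adjusted p = 0.0112), CLIC1, a chloride intracellular channel protein, by 0.45 (SE 0.11, adjusted p = 0.0205) and PLD3, a lysosomal nuclease, by 0.52 (SE 0.14, adjusted p = 0.0392). CLIC1 and PLD3 overlapped the controls, PLD3 at 795 to 1225 CPM against 488 to 829. CD52 and ITM2A kept their calls in all 12 fits that left out 1 library, EPHB6 was lost without siGATA1-1 replicate 3 (adjusted p = 0.057), and TMEM158, PLP2 and SH3BGRL3 were lost without siGATA1-1 replicate 4 (0.0693, 0.18 and 0.258). SOSTDC1 and CLIC1 were lost in 5 fits, PLD3 in 9 and SMIM3 in 10. With no filter on low counts CLIC1, PLD3 and SMIM3 were not called (adjusted p = 0.118, 0.133 and 0.183), and PLD3 also missed the threshold with DESeq2 (0.0529).

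Further genes that rose had other roles. CELF2, an RNA-binding regulator of splicing, measured 239, 227, 283 and 250 CPM against 40.9 to 145 (median 110; log2 fold change 1.22, SE 0.23, edgeR adjusted p = 2.1e-04). GLUL, glutamine synthetase, measured 1926, 1803, 2240 and 1766 CPM against 1028 to 1415 (median 1279; 0.62, SE 0.11, adjusted p = 6.26e-05). Neither overlapped its controls, and both kept their calls in all 12 fits that left out 1 library. HPGD, which inactivates prostaglandins, measured 68.3, 67.2, 35.4 and 56.5 CPM against 0 to 29.5 (median 7.51; 2.21, SE 0.50, adjusted p = 0.00748). It averaged 8.75 counts, was at 0 in siNC-2 replicates 1 and 3, and its estimate went to 3.41 without siNC-2 replicate 4; without siGATA1-1 replicate 1 it was not called (adjusted p = 0.055). PPP1R18, a phosphatase subunit that binds actin, rose by 1.06 (SE 0.23, adjusted p = 0.00334), and was lost without siGATA1-1 replicate 4 (0.281).

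CDKN1C, the cell cycle inhibitor p57, measured 543, 386, 637 and 244 CPM against 193 to 314 (median 232), and rose by 0.88 (SE 0.18, edgeR adjusted p = 0.00101). Its replicate 4 was within the control range while the other 3 were above it, and the call was lost without replicate 3 (adjusted p = 0.0697). CISH, a feedback inhibitor of STAT5 signalling, was instead highest in replicate 4, at 213, 207, 159 and 425 CPM against 109 to 167 (median 141; log2 fold change 0.89, SE 0.22, adjusted p = 0.0212). TXNIP, the thioredoxin-interacting protein, was also highest in replicate 4, at 191, 274, 301 and 553 CPM against 117 to 243 (median 174; 0.84, SE 0.20, adjusted p = 0.0145). Without siGATA1-1 replicate 4 neither was called: the log2 fold change was 0.51 (adjusted p = 0.995) for CISH and 0.45 (adjusted p = 1) for TXNIP. With limma voom TXNIP missed the threshold (adjusted p = 0.0564). CISH was also lost without siNC-1 replicate 3 (0.0687), siNC-2 replicate 3 (0.0521) or siNC-2 replicate 4 (0.0528).

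CISH was the only called gene of 20 tested genes of erythropoietin receptor and JAK-STAT signalling, where PIM1 was at 1301 ± 211 against 1269 ± 211 CPM and STAT3 at 523 ± 115 against 691 ± 198. CDKN1C was the only 1 of 17 called among genes of cell cycle entry, where CCND3 was at 586 ± 172 against 464 ± 90.2 CPM and CDK4 at 255 ± 53.8 against 364 ± 90.4. TXNIP was the only 1 of 29 called among thioredoxin, glutathione and peroxide genes, and GLUL and SLC7A8 moved in opposite directions among 29 tested genes of amino acid transport and synthesis. SLC38A2, another amino acid transporter, was at 574 ± 94.5 against 600 ± 85 CPM.

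No member passed the edgeR test in the lists of DNA replication (34 tested), mitosis (45), the BCL2 family (14), autophagy and lysosome (48), glycolysis (23), cholesterol and fatty acid synthesis (34), cytosolic ribosomal proteins (69), respiratory chain (73) or proteasome (33). The medians of these lists ran from -0.10 for the respiratory chain to 0.22 for the BCL2 family. At an unadjusted p under 0.05 there were 0 of 34 replication genes and 3 of 45 mitosis genes, all lower. MCM7, a subunit of the replicative helicase, was at 367 ± 58.4 against 416 ± 45.9 CPM, and TOP2A, the mitotic topoisomerase, at 376 ± 80 against 382 ± 70.9. Of 48 autophagy and lysosome genes 36 had positive values (median 0.16), with CTSD, cathepsin D, at 921 ± 80.4 against 824 ± 124 CPM. BCL2L1, an erythroid survival gene, was at 313 ± 78.9 against 268 ± 45.5 CPM (log2 fold change 0.22, 95% interval -0.16 to 0.60). ENO1, a glycolytic enzyme, came closest in these lists, at 3998 ± 313 against 3221 ± 259 CPM (0.31, SE 0.09, adjusted p = 0.121).

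Genes that respond to transfection or stress did not pass either. Of 43 listed interferon-stimulated genes 15 were tested. None of these was called, 12 had positive values (median 0.29), and 3 were higher at an unadjusted p under 0.05. B2M was at 1712 ± 77.7 against 1350 ± 145 CPM (log2 fold change 0.35, SE 0.11, edgeR adjusted p = 0.172) and BST2 at 447 ± 59.7 against 334 ± 50.3 (0.41, SE 0.16, adjusted p = 0.42). Of 34 tested genes of the integrated stress and unfolded protein response (median -0.06), 30 heat shock and chaperonin genes (median -0.14, 24 negative), 13 immediate early genes (median 0.14), 11 genes of small RNA silencing (median -0.08) and 13 p53 targets (median 0.06) none was called. DDIT4 was at 1156 ± 145 against 1262 ± 171 CPM, HSPA9 at 461 ± 126 against 645 ± 217, JUND at 1452 ± 80.6 against 1419 ± 380 and CCNG1 at 261 ± 46.3 against 251 ± 64.6.

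The size of the response differed between the 4 siGATA1-1 libraries. Of the 49 called genes, replicate 4 was the library farthest from the control mean on the log2 scale for 28 (14 higher, 14 lower), replicate 3 for 14, replicate 1 for 6 and replicate 2 for 1. Replicate 2 was the nearest to the controls for 28 genes. GATA1 itself was lowest in replicate 3, at 242 CPM, with 307, 308 and 300 CPM in replicates 1, 2 and 4. The called genes were chosen with these same libraries, so the counts are a description. Without replicate 4, 29 of the 49 genes lost their call; without replicate 3, 16; without replicate 1, 14; and without replicate 2, 8. Leaving out a control library cost between 1 (siNC-2 replicate 1) and 11 calls.

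**Figure D4:**
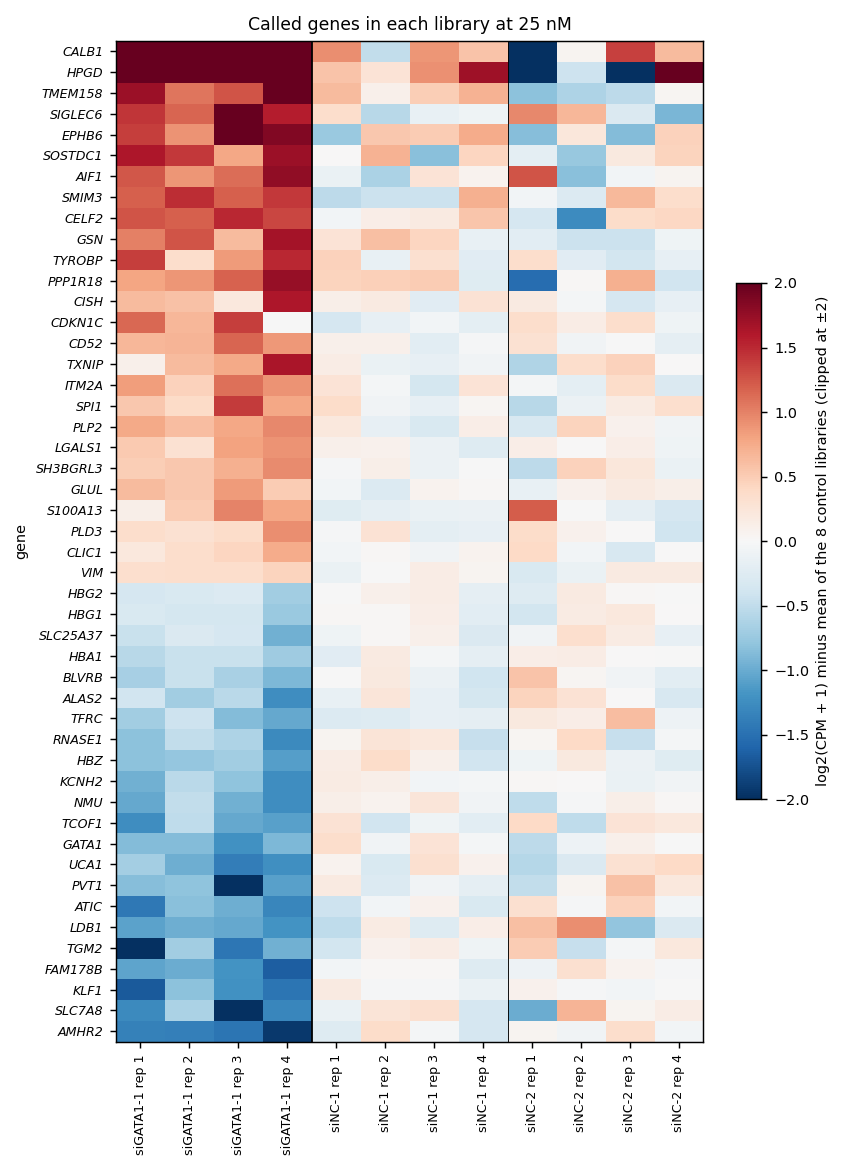
Rows are 48 of the 49 called genes in order of fold change and columns the 12 libraries at 25 nM; the color gives log2(CPM + 1) minus the mean of the 8 controls, with red above, blue below and values beyond ±2 clipped. The siGATA1-1 columns keep 1 sign for nearly every gene and are often deepest in replicate 4; in CDKN1C that column is near 0, and siNC-2 replicate 1 is red for AIF1 and S100A13.

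The call of 15 genes held in all 12 fits that left out 1 library and under the 9 other alternatives tried. Those that rose were CALB1, CD52, CELF2, GLUL, ITM2A and LGALS1. Those that fell were GATA1, KLF1, HBZ, BLVRB, FAM178B, NMU, AMHR2, KCNH2 and PVT1.

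The 2 control siRNAs were compared with each other in the same way. Between siNC-1 and siNC-2 at 25 nM edgeR called 0 of 6738 genes (0%), with 86 at an unadjusted p under 0.05 and a smallest adjusted p of 0.9998; DESeq2 and limma voom also called 0. All 49 genes had the same sign against either control alone. Against siNC-1 alone 30 of the 49 passed, against siNC-2 alone 27, against each of them 19, and 11 passed only when both controls were used together. Those comparisons share the siGATA1-1 libraries, and each has 4 control libraries in place of 8.

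The second siRNA, siGATA1-2 (product s5594) at 6.25 nM, was compared with its own 8 control libraries at that dose. It called 204 of 6738 genes (3.03%), and 46 of the 49 genes called with siGATA1-1 were among these 204. LDB1 (log2 fold change -0.75, edgeR adjusted p = 0.208), SMIM3 (1.04, adjusted p = 0.113) and TCOF1 (-0.24, adjusted p = 0.695) were not. All 49 had the same sign with both siRNAs, and 37 had the larger change with siGATA1-2. The 2 effects were tested against each other, with siRNA sequence and dose varying together, so that these cannot be told apart. No gene of 6738 (0%) differed at an adjusted p under 0.05 (smallest 0.297), and 333 did at an unadjusted p under 0.05.

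Of the 3 genes with the smallest p in that test, HBZ fell by 0.86 with siGATA1-1 and fell by 1.69 with siGATA1-2, a difference of 0.83 (95% interval 0.43 to 1.23, edgeR adjusted p = 0.297). VAMP4, a vesicle fusion protein, and NPLOC4, a ubiquitin-binding cofactor, were not called with siGATA1-1 (0.68 and -0.52), and their differences were 3.37 (95% interval 1.74 to 5.01) and -1.48 (-2.25 to -0.72). Of the 49 genes 9 differed at an unadjusted p under 0.05. HBA1, HBG1, HBG2 and FAM178B were among them, each with the smaller fall with siGATA1-1, by 0.59 (95% interval 0.24 to 0.94), 0.44 (0.17 to 0.71), 0.37 (0.11 to 0.63) and 0.44 (0.09 to 0.78). SOSTDC1, AIF1 and PLD3 had the smaller rise with siGATA1-1, and TCOF1 the larger fall. For GATA1 the difference was 0.22 (-0.24 to 0.69) and for KLF1 0.33 (-0.31 to 0.96).

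**Figure D5:**
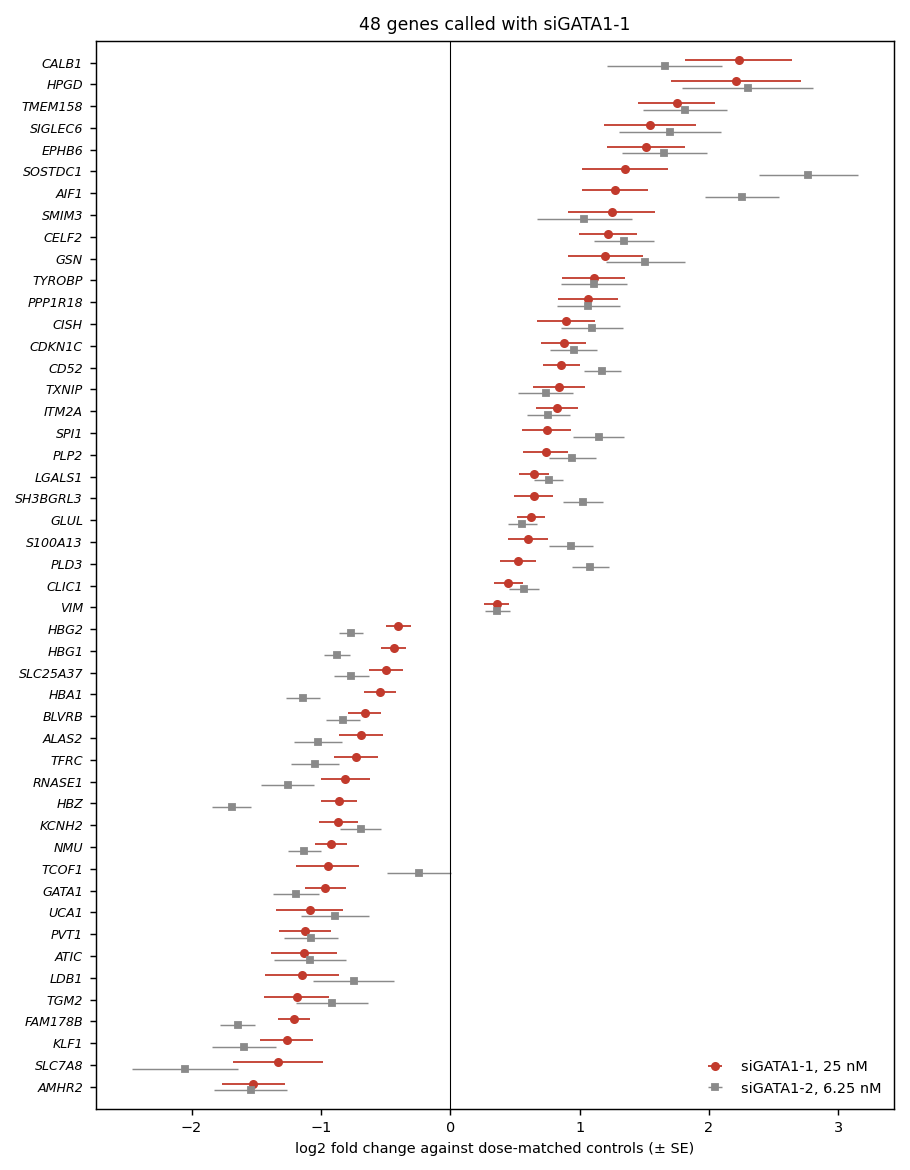
For 48 of the 49 genes (rows) the log2 fold change ± SE against dose-matched controls (horizontal axis) is given for siGATA1-1 at 25 nM (red circles) and siGATA1-2 at 6.25 nM (grey squares). Both points lie on the same side of 0 in all 48 rows; they are farthest apart for SOSTDC1, AIF1 and HBZ, and TCOF1 is closest to 0 with siGATA1-2, at -0.24.

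The 5 genes that came nearest to the threshold without passing it were LCP1, PITX1, REXO2, WAS and ID3. LCP1, the leukocyte actin-bundling protein plastin, measured 344, 328, 312 and 401 CPM against 167 to 261 (median 228), without overlap (log2 fold change 0.62, SE 0.17, edgeR adjusted p = 0.0632). PITX1, a transcription factor, was at 429 ± 56.8 against 282 ± 33 CPM (0.61, SE 0.17, adjusted p = 0.0695), also without overlap. REXO2, an exonuclease, was at 91.4 ± 21.2 against 175 ± 37.2 CPM (-0.91, SE 0.26, adjusted p = 0.0869). WAS, the actin regulator of blood cells, was at 142 ± 29.9 against 71.1 ± 25 CPM (0.95, SE 0.27, adjusted p = 0.0924). ID3, an inhibitor of helix-loop-helix factors, was at 92.6 ± 61.3 against 39.3 ± 19.6 CPM (1.28, SE 0.37, adjusted p = 0.0982), with siGATA1-1 replicate 4 at 184 CPM.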

How the data were processed

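What the authors deposited is a single table of unnormalized counts by gene symbol, one column for each of 24 libraries; the values are whole numbers with unequal totals. STAR 2.5.6b and build hg19 are named in the submitters' processing notes. The sources used here do not give the annotation or counter, whether strand was used, or how molecular identifiers were handled. Per the labels' protocols, 200000 cells were transfected and 10000 lysed for BRB-seq version 2. The series' design text calls the replicates biological; nothing says that they came from separate cultures or days, so p-values measure the spread between these libraries, which may be technical.

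Libraries were grouped by siRNA and dose from the labels, and columns were matched to sample titles. One edgeR model (edgeR 4.0.16, R 4.3.3) with 1 mean per group covered all 24 libraries: filterByExpr at a minimum count of 10 and total of 15, TMM scaling, a quasi-likelihood F test in its robust form, and Benjamini-Hochberg adjustment over the 6738 genes tested. The contrast was siGATA1-1 minus the mean of siNC-1 and siNC-2 at 25 nM, a gene was called at an adjusted p under 0.05, and the biological coefficient of variation was 0.263. Levels are CPM on normalized library sizes, as mean ± SD; SE is the standard error of a log2 fold change. Intervals include the spread between libraries; the limit for a count of 0 covers counting error only. The script was tested on simulated counts.

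The comparison, the gene lists and the cell type markers were chosen with earlier results of these data known, so lists are described by counts and medians, with no test. Genes were named by rule: GATA1, every called gene (values for the 15 largest changes in each direction and for called list members), the members of highest CPM up to 4 per list, 5 near misses, and the 3 genes of smallest p in the test between the siRNAs. The list of mitochondrially encoded transcripts was not analysed here, because none of the 27311 symbols matched it. One called gene and 1 gene that was not called are counted but not reported here individually. Spreadsheet dates stood in place of 27 symbols (0.123% of counts), and these are not named. Among 18 pairs of replicates at 25 nM none was identical, and the chi-square per degree of freedom was 1.88 to 3.76, so all were kept as separate samples. Alternatives were other normalization, DESeq2 1.42.0, voom in limma 3.58.1, other filters, single controls, fewer libraries, a replicate block, and each library left out in turn. Promoter windows came from RefSeq, build GRCh38.p14, which is not the build of the counts, and were matched by symbol.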

Additional observations from a re-analysis of the deposited data

Results flagged for a closer look

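Within groups of 4 libraries, 8 of 150 sets of values had 1 library far from the other 3 by Dixon's test; chance flags about 1 in 20 such sets. With siGATA1-1, GATA1 was at 242 CPM in replicate 3, with the others at 300 to 308, HBG1 at 3730 CPM in replicate 4, with the others at 4880 to 5010, and PLD3 at 1230 CPM in replicate 4, with the others at 795 to 831. The total of siGATA1-1 replicate 3 was about 184000 counts, with the others at 350000 to 378000. In siNC-1 replicate 4, PPP1R18 was at 95.5 CPM (others 154 to 161) and SMIM3 at 67.3 CPM (others 28 to 30.1). With siNC-2, HPGD was at 29.5 CPM in replicate 4 (others 0 to 3.72) and S100A13 at 1260 CPM in replicate 1 (others 429 to 543). The lowest totals at 25 nM were those of siNC-2 replicate 1 (88290 counts), siNC-2 replicate 3 (166642) and siGATA1-1 replicate 3; the part of depth in these values was not tested.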

How the results depend on the processing

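GATA1 kept its call in every fit, with a log2 fold change between -1.01 and -0.90 when single libraries were left out and -0.95 with the replicate block. No called gene changed direction under any alternative in which it was tested. For genes that were not called, and for medians of lists, a change of sign was not recorded in the same way. The count of genes called higher (26) was 42 with limma voom, 15 against siNC-1 alone, 11 against siNC-2 alone, 50 with only the 12 libraries compared and 53 with the replicate block in these, and 9 to 28 when single libraries were left out, the lowest without siGATA1-1 replicate 4. The count called lower (23) was 27 with limma voom, 16 against either control alone, 30 with only the 12 libraries compared, 27 with the replicate block in these, and 11 to 25 when single libraries were left out, with 15 without siGATA1-1 replicate 1 and 11 without replicate 4. S100A13 was the only one of the called genes not called with the block (adjusted p = 0.271). DESeq2 size factors in edgeR gave 49 calls in all and the DESeq2 Wald test 57. With only the 12 libraries 62.5% of calls were higher, against 53.1%. The called genes on a list (28) numbered 16 against siNC-1 alone, 15 against siNC-2 alone, and 9 to 31 when single libraries were left out, with 17 without siGATA1-1 replicate 3. The test between the siRNAs called 0 to 1 genes, the 1 without siGATA1-2 replicate 2; the control comparison called 0 throughout. To check the replicate numbers, the log2 CPM of each gene was taken as a deviation from the mean of its group. Only genes averaging at least 20 counts at 25 nM were used. These deviations correlated at -0.081 to 0.286 between same-numbered libraries of different groups. Between siNC-1 and siNC-2, replicate 4 had 0.286 against at most 0.007 for other numbers, and replicate 2 had -0.043 against up to 0.278. The check was mixed and does not settle whether the numbers pair the libraries. No block could be fitted between the siRNAs, since the controls at 6.25 nM carry other numbers. Depth limits the test: below 20 counts the median SE was 0.42 or more on the log2 scale.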
